A study of Mus musculus with 2 samples.

Results

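The 10 genes described here build, load and switch on the MHC class II molecules, and they were measured in the pancreatic lymph nodes of hyperglycemic and euglycemic NOD mice, which are inbred and prone to autoimmune diabetes. The 10 are the classical chains H2-Aa, H2-Ab1, H2-Ea and H2-Eb1, the peptide editor chains H2-DMa, H2-DMb1, H2-Oa and H2-Ob, the invariant chain Cd74 and the transactivator Ciita. They were chosen by name, Ciita under its older symbol C2ta, out of 19694 named genes, and every gene probe with these names was taken, which gave 16 of 41174 probes and 25 of 43379 gene spots per array. Each of 2 two-colour Agilent arrays carried the RNA of 1 hyperglycemic female aged 16 weeks (blood glucose above 500 mg/dl) in Cy5, the red channel. In Cy3, the green channel, both arrays carried the same pool of 2 euglycemic females of that strain and age (below 200 mg/dl). The mice are called mouse 1 and mouse 2 after their arrays, and they are the replicates (n = 2). The pool counts as 1 control sample, and how far control mice differ was not measured. Cy5 held the hyperglycemic RNA on both arrays, so a dye effect on a probe and a difference between the groups cannot be told apart.

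Class II molecules carry peptides from the endosomes of B cells, dendritic cells and macrophages to the cell surface, where CD4+ T cells read them. The alpha and beta chains assemble with the invariant chain Cd74, which blocks the groove until endosomal proteases cut it. H2-DM, a dimer of H2-DMa and H2-DMb1, then removes the remaining fragment and selects for stable peptides, and H2-O (H2-Oa with H2-Ob) restrains H2-DM, mainly in B cells. In NOD mice the I-A molecule (H2-Aa with H2-Ab1) is the main genetic determinant of diabetes, and no I-E molecule is made because H2-Ea is not transcribed. In the node that drains the pancreas, T cells meet islet antigens.

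Genes of the class II chains share a promoter module in which an X box stands upstream of a Y box. The RFX complex binds the X box, NF-Y binds the Y box, and Ciita docks on the assembled factors. The stretches below are shown as background on this module, and its part in the measured ratios was not tested. Of the 10 genes, 6 had a promoter in the RefSeq table (GRCm38.p6), with 7 starts. The letters GNAAC (from the X box) followed within 15 to 35 bases by GATTGG (the Y box), on either strand of the 250 bases upstream of a start, were found in 5 of these 7 promoters and in 1.05% of all 32851 promoters. GATTGG alone, on either strand, was found in 6 of 7 and in 14.6% of all. The motif was chosen after the sequences were read, and a match of letters is a description of the C57BL/6J reference and not a mapped binding site. The sequences run 5′ to 3′ on the gene's strand, and capitals mark GNAAC and GATTGG.
H2-Aa (chr17:34287857-34287914, minus strand): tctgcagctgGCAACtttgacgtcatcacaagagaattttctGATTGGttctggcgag
H2-Eb1 (chr17:34305766-34305822, plus strand): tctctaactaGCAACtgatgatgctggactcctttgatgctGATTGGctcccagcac
H2-DMb1 (chr17:34153087-34153144, plus strand): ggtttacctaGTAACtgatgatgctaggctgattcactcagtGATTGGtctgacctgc
H2-Oa (chr17:34092293-34092350, plus strand): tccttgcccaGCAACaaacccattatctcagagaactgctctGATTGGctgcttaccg
H2-Ob (chr17:34238808-34238862, plus strand): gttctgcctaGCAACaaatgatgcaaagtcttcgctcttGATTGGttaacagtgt
The spacer between the capitals was 24 bases in H2-Ob, 26 in H2-Eb1 and 27 in H2-Aa, H2-DMb1 and H2-Oa. H2-DMa had 2 starts, without this module upstream of either.

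In the log2 ratios that the authors deposited, 7 of 8 measured class II genes were lower in both hyperglycemic mice, by 1.44- to 2.02-fold, and Ciita was the exception. Of 13 class II probes there, 0 were called higher and 12 lower by limma (adjusted p under 0.05, two-sided), beside 25.1% higher and 18.4% lower among all 5072 probes of that table. In a second fit that started from the scanner signals, 0 of 14 tested class II probes were called in either direction, beside 4.74% called higher and 0.488% lower of all 8815 probes tested. At an unadjusted p under 0.05 that fit had 9 class II probes below 0 and 2 above, among 1713 of all 8815 probes in either direction. Both mice lay below 0 for 12 of 13 class II probes in the deposited ratios, where 37.4% of all probes did so and 44.7% lay above 0 in both. The scanner-signal fit had 11 of 14 below 0 in both mice and 2 above, with 43.8% of all probes below and 31.6% above. These 11, and the 9 at an unadjusted p under 0.05, include the dimmer H2-Aa probe, whose Cy5 signal on array 1 was not well above background. The median class II log2 ratio was -0.64 in the deposited ratios (all probes 0.06) and -0.28 in the scanner-signal fit (all probes -0.03). Both fits read the same 2 arrays and are not independent of each other. With Agilent processed signals, which hold the deposited values, limma called 0 of 14 class II probes and 0 of all 8815 probes in either direction. The 12 calls thus depend on testing within the 5072 probes of the deposited table. A lower signal in a whole node can come from fewer class II cells or from less RNA per cell, and these cannot be told apart.

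The Cy5 channel was dim. The median gene spot read 37.7 in Cy5 on array 1 and 38.2 on array 2, where the local background was 35, against 234 and 81.2 in Cy3. Of all gene spots, 14.5% and 16.4% were well above background in Cy5, against 21.7% and 63.0% in Cy3, with 0 saturated. No depth of counting applies to arrays, and their number limits the precision.

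**Figure D1:**
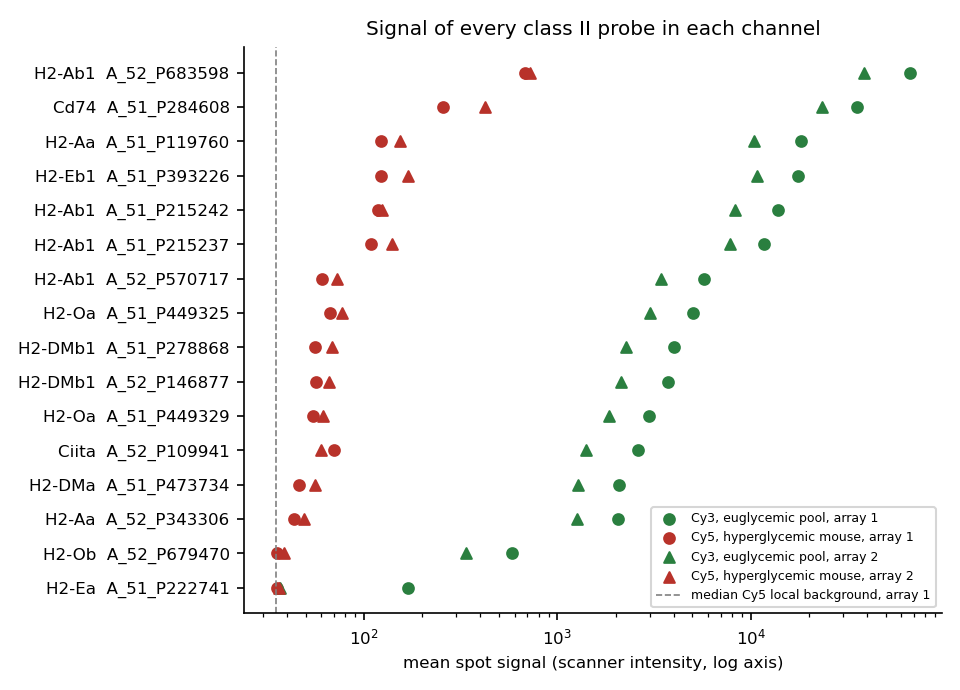
Mean spot signal of each of the 16 class II probes (scanner intensity, log axis) in the pool (Cy3, green) and in the hyperglycemic mouse (Cy5, red) on array 1 (circles) and array 2 (triangles); the dashed line is the median Cy5 background of 35 on array 1. Cy5 signals of the H2-Ob and H2-Ea probes, and the Cy3 signal of H2-Ea on array 2, lie at the background line, and signals of different probes are not comparable as transcript levels.

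Before any normalization the class II probes already stood below most others in Cy5 relative to Cy3. Among probes well above background in both channels, the net Cy5 signal had a median of 0.989% of the net Cy3 signal on array 1 and 2.18% on array 2. The class II probes had medians of 0.587% and 1.39%. Below the median of all such probes lay 12 of 13 class II probes on array 1, with Ciita above it at 1.49%, and 14 of 14 on array 2. These shares carry the unequal brightness of the dyes and vary with brightness, so they are set against other probes of the same array alone.

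H2-Aa encodes the alpha chain of I-A, and its brighter probe (A_51_P119760, mm8 chromosome 17, 33892022 to 33892081) read 18189 in Cy3 and 123 in Cy5 on array 1. On array 2 the signals were 10453 and 153. Deposited log2 ratios were -0.88 in mouse 1 and -0.89 in mouse 2, a mean of -0.89 ± 0.01 (SD, n = 2), which is 1.85-fold lower (limma adjusted p = 0.00426). The mice were nearly identical on this scale. In the scanner-signal fit they stood at -0.37 and -0.63, with a mean of -0.50 ± 0.18 and an adjusted p of 0.0830 by limma.

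The second H2-Aa probe (A_52_P343306, chromosome 17, 33892680 to 33892739) was dim in the mice. It read 2053 in Cy3 and 43.5 in Cy5 on array 1, where Cy5 was not well above background, and 1261 and 49.1 on array 2. It entered the scanner-signal fit through Cy3 alone on array 1, at -0.15 in mouse 1 and -0.41 in mouse 2 (limma adjusted p = 0.255), and it is outside the deposited table. Agilent processed signals put it at -1.29 and -1.16. Both H2-Aa probes were below 0 in both mice on each scale where they had values. The mouse 1 values of the second probe rest on a Cy5 signal not well above background. They do not count as agreement between the probes.

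H2-Ab1 encodes the beta chain of I-A and had 4 probes. One of them (A_51_P215237, chromosome 17, 33875638 to 33875697) was printed 10 times on each array, which gives the error of a spot. Its Cy3 signals ran from 10983 to 12185 on array 1 and from 7631 to 8056 on array 2 over the 9 spots without an outlier mark, and its Cy5 signals from 96.8 to 116 and from 128 to 147. In processed signals the log2 ratio of a spot averaged -0.50 ± 0.12 (SD over 10 spots) in mouse 1 and -0.68 ± 0.11 (SD over 9 spots) in mouse 2. The highest single spot was at -0.34 in mouse 1 and -0.48 in mouse 2, so no spot reached 0. In the scanner-signal normalization the spots averaged -0.23 ± 0.07 and -0.44 ± 0.09. The spots of 1 array share its RNA and measure technical error alone.

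**Figure D2:**
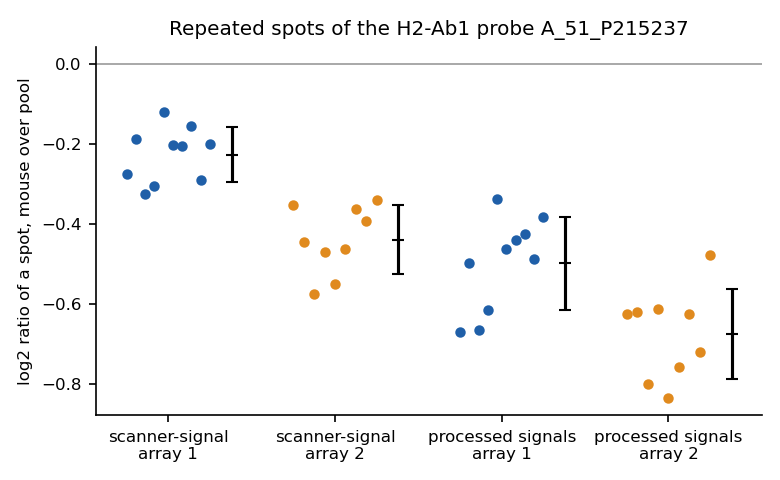
Log2 ratio (mouse over pool) of each repeated spot of the H2-Ab1 probe A_51_P215237 on arrays 1 (blue) and 2 (orange), normalized from scanner signals (first pair) and as Agilent processed signals (second pair); black bars are the mean and SD over spots, and 1 spot of array 2 with an outlier mark is left out. The spots shown lie below 0, from -0.12 to -0.84.

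As a probe, A_51_P215237 had deposited log2 ratios of -0.50 in mouse 1 and -0.68 in mouse 2, a mean of -0.59 ± 0.12 (limma adjusted p = 0.0209). A_51_P215242 (chromosome 17, 33872973 to 33873032) was at -0.59 and -0.96 (1.71-fold lower, limma adjusted p = 0.00960). A_52_P570717, which was designed on another H2-Ab1 transcript record and has no position in the files, was at -1.08 and -0.95 and was the lowest class II probe of the deposited table, at 2.02-fold lower (limma adjusted p = 0.00283). These 3 probes fell together in the deposited ratios, and all were below 0 in the scanner-signal fit too, from -0.33 to -0.48, where limma gave adjusted p from 0.0881 to 0.177.

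The brightest H2-Ab1 probe (A_52_P683598, chromosome 17, 33877309 to 33877368) read 66974 in Cy3 and 679 in Cy5 on array 1, and 38731 and 719 on array 2. In the deposited ratios it was lower like the others, at -0.54 in mouse 1 and -0.83 in mouse 2 (1.61-fold lower, limma adjusted p = 0.0137). In the scanner-signal fit it stood above 0, at 2.39 and 0.73, a mean of 1.56 ± 1.17 with an adjusted p of 0.110 by limma. The probes of this gene thus agreed in direction in the deposited ratios and not in the scanner-signal fit. Brightness went with this: with all probes of the scanner-signal fit split into 10 equal bins by intensity, the median log2 ratio was 0.64 in the brightest bin, which held 6 class II probes, and between -0.12 and -0.01 in the other 9. For the deposited ratios it was between -0.03 and 0.01 in each bin that held class II probes. The part of brightness in single class II values was not tested.

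**Figure D3:**
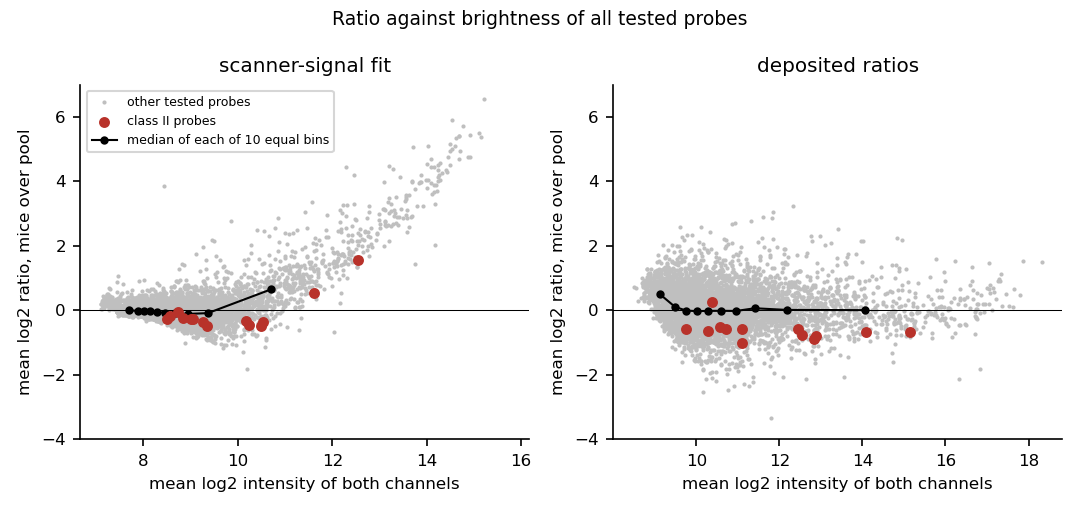
Mean log2 ratio over both mice against mean log2 intensity of both channels for all tested probes (grey) and the class II probes (red), in the scanner-signal fit (left) and the deposited ratios (right); the black line joins the medians of 10 equal bins of probes by intensity. On the left the ratios of all probes climb at the bright end, to a median of 0.64 in the last bin, and on the right the medians stay near 0 above the dimmest bins, with 12 of 13 class II probes below 0.

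With a loess curve drawn through spots well above background in both channels, an alternative chosen after seeing the data, the brightest H2-Ab1 probe was at -0.73 (limma adjusted p = 0.00706). That fit called 0 class II probes higher and 6 of 13 lower, among 329 probes higher and 256 lower of 5072. The 6 were Cd74, the H2-Eb1 probe, the brighter H2-Aa probe and the H2-Ab1 probes other than A_52_P570717. With a narrower loess span of 0.1, also chosen after seeing the data, 8 of 14 were called lower and 0 higher, among 494 probes higher and 611 lower of 8815.

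H2-Eb1 encodes the beta chain of I-E, which has no alpha partner in this strain. Its probe (A_51_P393226, chromosome 17, 33922800 to 33923261) read 17601 in Cy3 and 123 in Cy5 on array 1 and 10785 and 169 on array 2, so its transcript was well above background in every channel. Deposited log2 ratios were -0.76 in mouse 1 and -0.83 in mouse 2, a mean of -0.80 ± 0.05 (1.74-fold lower, limma adjusted p = 0.00633). The scanner-signal values were -0.27 and -0.45 (limma adjusted p = 0.145). Both mice lay below the pool on either scale.

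H2-Ea, the alpha chain of I-E, gave no signal well above background in either channel of either array. Its single probe (A_51_P222741, chromosome 17, 33952105 to 33952164) read 169 in Cy3 on array 1, below the median gene spot, and 36.9 on array 2. In Cy5 it read 35.5 and 36.1 over backgrounds of 38.5 and 34. It was not tested, and no fold is given. The RefSeq table lists this gene as a transcribed pseudogene in C57BL/6J.

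Cd74 (A_51_P284608, chromosome 18, 60937790 to 60937847), the invariant chain that escorts class II chains to the endosome, read 35556 in Cy3 and 255 in Cy5 on array 1 and 23312 and 422 on array 2. Deposited log2 ratios were -0.73 in mouse 1 and -0.59 in mouse 2, a mean of -0.66 ± 0.10, which is 1.59-fold lower (limma adjusted p = 0.0128). In the scanner-signal fit Cd74 was above 0 at 0.73 and 0.32 (limma adjusted p = 0.112), and it was at -0.80 with the curve from measured spots (limma adjusted p = 0.00679). Cd74 and the brightest H2-Ab1 probe were the 2 class II probes above 0 on both arrays in the scanner-signal fit.

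**Figure D4:**
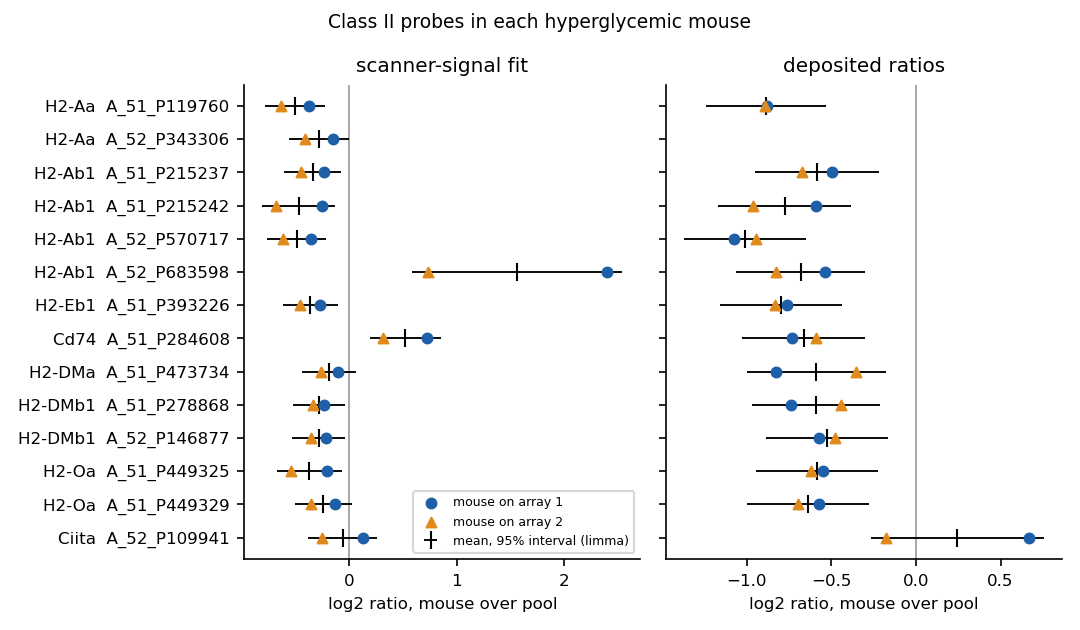
Log2 ratio of each tested class II probe in mouse 1 (circles) and mouse 2 (triangles), with the mean and its 95% interval from limma (black), in the scanner-signal fit (left) and the deposited ratios (right). On the right both mice lie below 0 for 12 of 13 probes, and on the left 11 of 14 probes have both mice below 0.

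The peptide editor H2-DM was lower in the deposited ratios for both of its measured chains. H2-DMa (A_51_P473734, chromosome 17, 33747809 to 33748372) read 2091 in Cy3 and 46.1 in Cy5 on array 1 and 1282 and 55.8 on array 2. Its deposited log2 ratios were -0.83 in mouse 1 and -0.35 in mouse 2, a mean of -0.59 ± 0.33 (1.51-fold lower, limma adjusted p = 0.0312), the widest spread between the mice among the probes called lower. The scanner-signal values were -0.10 and -0.26 (limma adjusted p = 0.393).

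H2-DMb1, the beta chain of H2-DM, had 2 probes. A_51_P278868 (chromosome 17, 33767055 to 33767114) read 3992 in Cy3 and 56.0 in Cy5 on array 1 and 2268 and 68.5 on array 2. Its deposited log2 ratios were -0.74 and -0.44 (1.51-fold lower, limma adjusted p = 0.0231). A_52_P146877 (chromosome 17, 33766456 to 33766515) was at -0.57 and -0.48 (1.44-fold lower, limma adjusted p = 0.0293). The files list the transcript of its paralog H2-DMb2 beside that of H2-DMb1 for this second probe, so its signal can hold both. The deposited means of these probes were -0.59 and -0.52, and both stood at -0.28 in the scanner-signal fit (limma adjusted p of 0.206 and 0.216).

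H2-Oa, a chain of the H2-DM modulator H2-O, was lower in the deposited ratios at both of its probes. A_51_P449325 (chromosome 17, 33705542 to 33705601) read 5029 in Cy3 and 66.3 in Cy5 on array 1 and 3020 and 76.5 on array 2. Its deposited log2 ratios were -0.55 and -0.62, a mean of -0.59 ± 0.05 (limma adjusted p = 0.0195). A_51_P449329 (chromosome 17, 33705473 to 33705533) was at -0.58 and -0.70 (1.56-fold lower, limma adjusted p = 0.0147). From scanner signals they stood at -0.37 and -0.24 (limma adjusted p of 0.194 and 0.303).

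H2-Ob, the other chain of H2-O, was too dim for a test. Its probe (A_52_P679470, chromosome 17, 33852080 to 33852311) read 585 in Cy3 on array 1 and 336 on array 2, well above background on array 2 alone, and 35.6 and 38.7 in Cy5, not well above background on either. No fold is given for it.

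Ciita, the transactivator on which class II transcription depends, was the 1 measured gene not lower in both mice in the deposited ratios. Its probe (A_52_P109941, chromosome 16, 10439788 to 10439847) read 2621 in Cy3 and 69.6 in Cy5 on array 1 and 1408 and 59.6 on array 2. Deposited log2 ratios were 0.67 in mouse 1 and -0.18 in mouse 2, a mean of 0.24 ± 0.60 (95% interval -0.27 to 0.76, limma adjusted p = 0.396). The scanner-signal values were 0.13 and -0.25, with a 95% interval of -0.38 to 0.26 (limma adjusted p = 0.832). The mice stood on opposite sides of the pool on either scale, and the interval of the deposited mean allows both a small decrease and an increase. The difference between Ciita and its target genes was not tested.

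Among the other factors of class II transcription, 9 of 18 listed genes could be tested in the scanner-signal fit, with 0 called higher, 1 lower and 8 not called. Of 6 in the deposited ratios 1 was higher, 1 lower and 4 not called. Among all probes, scanner signals had 4.74% called up and 0.488% called down. The deposited table had 25.1% called up and 18.4% called down. An excess of this list over those shares was not tested. Nfyb, a subunit of the Y box factor NF-Y, was at 1.32 and 1.38 in the deposited ratios (limma adjusted p = 0.00115) and at 0.63 in the scanner-signal fit (limma adjusted p = 0.0766). Of the RFX complex, Rfxank alone was testable, in the scanner-signal fit, at -0.07 (limma adjusted p = 0.735).

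Interferon-gamma signalling genes counted 1 higher, 2 lower and 11 not called of 14 in the scanner-signal fit, and 2 higher, 5 lower and 4 not called of 11 in the deposited ratios. Over all probes 4.74% were higher and 0.488% lower in the former and 25.1% and 18.4% in the latter. The receptor chain Ifngr1 was called higher in both fits, at 0.63 ± 0.15 in the deposited ratios (limma adjusted p = 0.0161) and 0.66 ± 0.16 in the scanner-signal fit (limma adjusted p = 0.0353). The interferon-induced GTPase Igtp was called lower in both, at -1.57 ± 0.04 (limma adjusted p = 8.83e-04) and -0.77 ± 0.28 (limma adjusted p = 0.0394). The deposited ratios also called the kinase Jak2 higher at 0.70 and the GTPases Iigp1 and Irgm1 and the feedback inhibitor Socs1 lower, at -1.61, -0.85 and -0.60.

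Of 11 tested endosomal genes that prepare class II peptides, the scanner-signal fit called 1 higher, 0 lower and 10 not (4.74% higher and 0.488% lower over all probes). The deposited ratios called 2 higher, 3 lower and 6 not (25.1% and 18.4% over all probes), counts near that background. Cathepsin L (Ctsl), which cuts the invariant chain in thymic epithelium, was higher in both, at 1.51 ± 0.51 in the deposited ratios (limma adjusted p = 0.00192) and 2.55 ± 1.26 in the scanner-signal fit (limma adjusted p = 0.0363). Cathepsin S (Ctss), which does so in B cells and dendritic cells, was lower in the deposited ratios at -0.66 ± 0.25 (limma adjusted p = 0.0171), and it stood at 0.25 in the scanner-signal fit (limma adjusted p = 0.254). The thiol reductase Ifi30 was lower in the deposited ratios at -0.80 ± 0.07 (limma adjusted p = 0.00630), as was cathepsin B (Ctsb) at -0.52 ± 0.09 (limma adjusted p = 0.0312), while the ubiquitin ligase Marchf8 was higher at 0.52 ± 0.06 (limma adjusted p = 0.0295).

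Neighbours in the class II region of chromosome 17 were measured as well. The immunoproteasome gene Psmb8 was called lower in both fits, through probe A_51_P345367 at -1.53 ± 0.17 in the deposited ratios (limma adjusted p = 9.50e-04) and -0.85 from scanner signals (limma adjusted p = 0.0446). Its probe A_51_P345366 was at -0.90 ± 0.52 in the deposited ratios (limma adjusted p = 0.0116) and -0.64 from scanner signals (limma adjusted p = 0.125). Psmb9, its partner subunit, was lower in the deposited ratios at -0.89 ± 0.22 (limma adjusted p = 0.00541) and at -0.39 in the scanner-signal fit (limma adjusted p = 0.0978). The peptide transporter Tap1, tested in the scanner-signal fit alone, was at 0.06 (limma adjusted p = 0.759). The chromatin reader Brd2 at the edge of the region was at -0.08 ± 0.23 in the deposited ratios (limma adjusted p = 0.711) and at -0.10 in the scanner-signal fit (limma adjusted p = 0.655). H2-DMb2, Tap2, H2-Eb2 and Notch4 did not pass the filter on dim probes, and no probe of Btnl2 was matched.

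Markers of the cells that carry class II, and of other cells in the tissue, were measured beside these genes. In processed signals summed over a list, the class II genes gave log2 ratios of -0.62 in mouse 1 and -0.76 in mouse 2. B cell markers were at -0.51 and -0.52, dendritic cell markers at -0.73 and -0.92, markers of T cells, which make no class II in the mouse, at -1.02 and -0.97, and macrophage markers at 0.23 and 0.40. A few genes carry some of these sums: without Cd83, the dendritic cell markers were at -0.28 and -0.65, and 10 of the 14 were not well above background in Cy5. Without Lyz2 the macrophage markers were at 0.63 and 0.36, and without H2-Ab1 the class II genes were at -0.70 and -0.68. Exocrine pancreas genes were at 0.33 and 0.69, and their summed Cy3 signal of 2555360 on array 1 and 3622010 on array 2 stood beside 92051 and 149609 for the class II genes. Summed Cy5 signals were 3214090 and 5862630 for the exocrine genes and 59872 and 88585 for the class II genes. The part of these cells in the class II values was not tested.

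**Figure D5:**
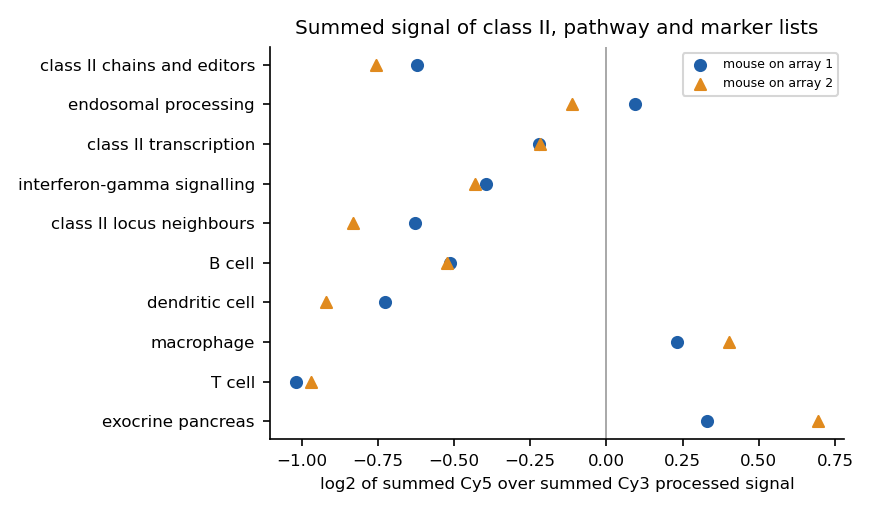
Log2 of the summed Cy5 over the summed Cy3 processed signal (mouse over pool) for the class II genes and each pathway and marker list, in mouse 1 (circles) and mouse 2 (triangles). The class II genes lie at -0.62 and -0.76, between the B cell and T cell markers, and the exocrine pancreas and macrophage lists lie above 0.

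Counts over the marker lists are read against the 25.1% higher and 18.4% lower of all probes in the deposited ratios. Of 9 B cell genes 1 was higher (Pax5), 4 lower and 4 not called, and the lower ones included the transcription factor Spib (-1.38), the surface protein Ms4a1 (-1.12) and the Fc receptor Fcmr (-1.05). The B cell receptor chain Cd79b was at -0.40 (limma adjusted p = 0.0688). Dendritic cell genes counted 0 higher, 2 lower (Cd83 at -1.34 and Ccr7 at -0.73) and 1 not called of 3, macrophage genes 3 higher, 1 lower and 3 not called of 7, T cell genes 0 higher and 11 lower of 11, and exocrine genes 11 higher, 2 lower and 10 not called of 23.

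In the scanner-signal fit, where 4.74% of all probes were higher and 0.488% lower, the counts were 0 higher and 1 lower of 16 B cell genes (Fcmr), 0 and 1 of 5 dendritic cell genes (Cd83), 2 and 0 of 11 macrophage genes (Lyz2 and Marco), 0 and 1 of 13 T cell genes (Cd3d) and 21 and 0 of 23 exocrine genes. In Cy5, all probes of 6 of 18 B cell genes, 10 of 14 dendritic cell genes, 6 of 16 macrophage genes, 4 of 16 T cell genes and 0 of 23 exocrine genes on the array were not well above background. In both channels this held for 2 dendritic cell genes, Cd209a and Ccl22.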

How the data were processed

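Scans were quantified in Agilent Feature Extraction 10.7.3.1, per the file headers. Mean signal columns hold raw scanner intensity, per the file headers, while the processed intensity columns were background-subtracted and dye-normalized and give the deposited log10 ratios of Cy5 over Cy3. The authors' deposited value table holds log2 ratios (5072 gene probes) that equal these log10 ratios times 3.32, with medians of 0.08 and 0.03; how its probes were chosen is not stated. Labelling started from 1 ug of total RNA, per the labels.

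The scanner-signal fit used mean signals, normexp with offset 50, loess with span 0.3, no control or outlier spots, spots averaged per probe, and a filter that kept a probe if either channel, on each array, was well above background. The deposited-ratio fit used the deposited log2 ratios unscaled. The mean log2 ratio of a probe was tested against 0 with limma 3.58.1 (R 4.3.3, 1 residual degree of freedom, two-sided) and adjusted by Benjamini-Hochberg over all tested probes. It was tested on simulated data. Every class II probe was reported. Listed genes took their tested probe of highest intensity in each fit, and called genes were named, at most 4 per direction; the values of some listed genes are not reported here. Probe positions are mm8. Names were matched to RefSeq for 33026 of 41174 probes. Members and lists were chosen with earlier results of these data known. Alternatives changed offset, background, normalization, signal, filter or variance model, or left out an array. Both arrays were on 1 slide.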

Additional observations from a re-analysis of the deposited data

How the results depend on the processing

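No paired analysis was possible because both mice were set against the same pool. Class II medians were below 0 in all 11 settings, from -1.45 to -0.28. Medians over all tested probes ran from -0.18 with processed signals to 0.06 in the deposited ratios. The settings are not independent: no filter, the filter on both channels and the variance trend reuse the ratios of the scanner-signal fit. Offset 10 gave -0.42, no background correction -0.45, median centring -1.45, processed signals -0.65 and deposited ratios -0.64, against -0.28 in the scanner-signal fit. From scanner signals, array 1 alone gave -0.20 and array 2 alone -0.38, with no test. Class II probes called lower numbered 0 of 14 in the scanner-signal fit, 9 without background correction, 13 with median centring, 12 in the deposited ratios, 1 with an intensity trend in the variance, 8 with loess span 0.1 and 6 with the curve from measured spots. The calls stayed at 0 with offset 10, processed signals, no filter and the filter on both channels, where limma gave 7, 10, 13 and 8 class II probes at an unadjusted p under 0.05. Processed signals and deposited ratios hold the same values at the 13 class II probes they share. They differ in the probes tested, 8815 and 5072, and in the total degrees of freedom of limma, 3.16 and 7.30. Class II probes called higher numbered 0 except without background correction, which called 1, the brightest H2-Ab1 probe. That probe, at 1.56 in the scanner-signal fit, turned to -2.10 with median centring, -0.68 in the deposited ratios, -0.45 with span 0.1 and -0.73 with the curve from measured spots. Cd74, at 0.52, turned to -2.35, -0.66, -0.81 and -0.80 in the same order. The cause was not tested. Pathway genes called numbered 5 in the scanner-signal fit, 0 with offset 10, processed signals, no filter or the filter on both channels, 14 without background correction, 29 with median centring, 15 in the deposited ratios, 9 with the variance trend, 13 with span 0.1 and 10 with the curve from measured spots. Over all probes, 418 were called higher and 43 lower from scanner signals, 93 and 9 with offset 10, 1180 and 919 without background correction, 2827 and 3045 with median centring, 1274 and 931 in the deposited ratios, 24 and 0 with no filter, 94 and 0 with the filter on both channels, 666 and 514 with the variance trend, 494 and 611 with span 0.1, and 329 and 256 with the curve from measured spots. Processed signals gave 0 and 0, where limma had 3396 at an unadjusted p under 0.05, against 1637 with offset 10, 3179 with no filter and 1159 with the filter on both channels. Probes tested numbered 41162 with no filter and 5072 in the deposited ratios, the filter on both channels and the curve from measured spots. Every other setting tested 8815. The dim Cy5 channel limits every ratio, and span 0.1, the curve from measured spots and the list sums without their brightest gene were chosen after seeing the data.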
